A study of Astyanax mexicanus with 6 samples.

Results

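Liver of the Tinaja cave population of the Mexican tetra, Astyanax mexicanus, was set against liver of the Surface population by RNA sequencing. The comparison used 4 of the 6 liver libraries of the series, Tinaja 1 and 2 and Surface 1 and 2, and all genes with enough counts, 15282 of the 27420 in the table. The remaining libraries, Pachon 1 and 2, come from another cave population and served to estimate the spread between libraries. They also entered the filter that chose the genes tested, and their values are shown beside Tinaja for some genes. For several of these the test of Tinaja against Pachon from the same fit is given too. The labels give population, tissue and replicate number and no treatment. Whether each library came from its own fish or from a pool is not stated, so p-values reflect library-to-library spread, part of which may be technical. The sources used here give no sex, age, feeding state or hour of sampling, and the part of these in the differences was not tested.

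Astyanax mexicanus is a single species with an eyed form in rivers and eyeless forms in caves, where food is scarce and irregular. Cave populations are known for large fat stores, tolerance of starvation and changes in sugar and lipid handling, and the liver, which stores glycogen and fat, makes glucose and secretes most plasma proteins, is a main site of these functions. A few secreted proteins make up much of the messenger RNA of a vertebrate liver, so abundant and scarce genes are described separately here. The table identifies genes by Ensembl identifiers, of which 0 could be paired with a symbol in the reference used. No gene is therefore given a name or a function, and liver markers and markers of other cell types could not be checked. In whole tissue, fewer cells of a type and less RNA per cell cannot be told apart.

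Tinaja and Surface libraries had 22168622 to 29521610 counts and 18361 to 18904 genes with at least 1 count. The 10 most abundant genes of a library held 26% and 29.1% of its reads in Surface 1 and 2, and 31.6% and 42.8% in Tinaja 1 and 2. The single most abundant gene took 15.8% in Tinaja 2 and 5.34% to 8.28% in the other libraries of the comparison. No pair of the 6 libraries had identical counts. A count of 3 reads, the limit that 0 reads allow, corresponded to 0.119 to 0.166 CPM (counts per 1000000 counts, with libraries scaled by the trimmed mean of M values, TMM) in these 4 libraries.

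Tinaja liver differed from Surface liver in genes at every level of abundance. The total numbers in each direction were nearly equal, though not among the most abundant genes. Of 15282 genes tested, 2411 (15.8%) were called, that is, had a Benjamini-Hochberg adjusted p below 0.05 in edgeR's quasi-likelihood F-test. Of these, 1241 (8.12% of the genes tested) were higher in Tinaja and 1170 (7.66%) lower. The median log2 fold change, Tinaja minus Surface, was 1.67 among the higher genes, with quartiles of 1.17 and 2.91, and -1.69 among the lower genes, with quartiles of -2.92 and -1.16. Over all genes tested the median absolute log2 fold change was 0.47. At adjusted p below 0.01 there were 327 higher and 323 lower genes, and at adjusted p below 0.001 there were 42 and 54.

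Most of the called differences were moderate. Among the higher genes, 182 differed by less than 2-fold, 573 by 2-fold to 4-fold, 191 by 4-fold to 8-fold and 295 by 8-fold or more. The same sizes held 196, 508, 190 and 276 of the lower genes. A stricter test, edgeR's test against a fold of 2 in place of no change, called 625 genes (4.09%), 310 higher and 315 lower. That count was 253 without Tinaja 1 and 317 without Tinaja 2. Some called genes had no reads in one population: 63 of the higher genes were at 0 reads in Surface and 58 of the lower genes at 0 reads in Tinaja. With each of these genes at the bound that 3 reads over the population allow, 286 higher and 271 lower genes differed by at least 8-fold, and the medians stayed at 1.67 and -1.69.

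**Figure D1:**
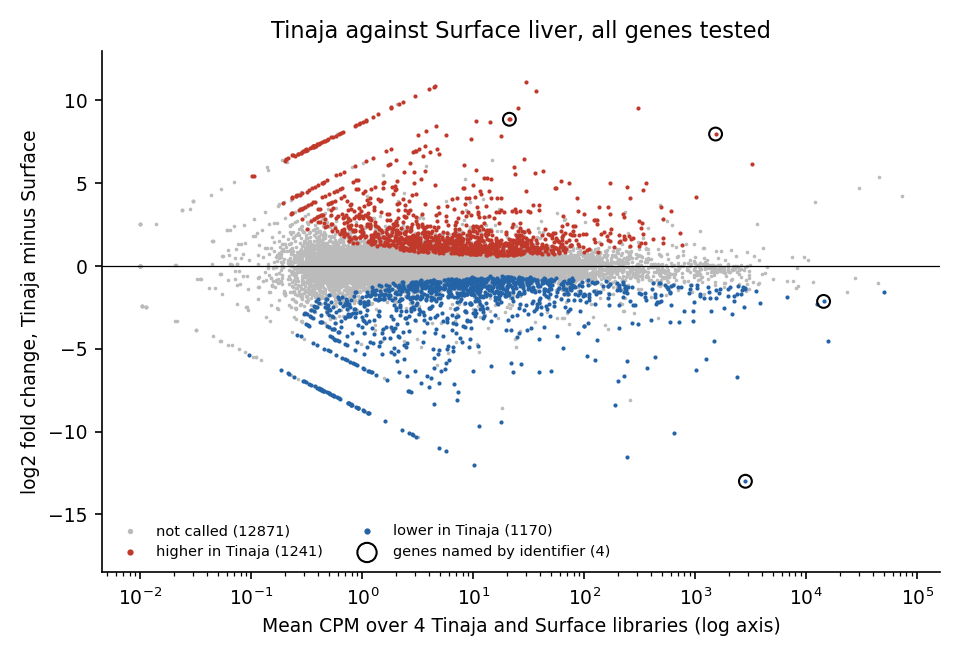
Each point is 1 of 15282 genes, with its mean CPM over the 4 Tinaja and Surface libraries on a log x axis (means under 0.01 drawn at 0.01) and its log2 fold change, Tinaja minus Surface, on the y axis. Red and blue points are the 1241 higher and 1170 lower genes and grey points the rest; the slanted lines at the left are genes with 0 or a few reads in 1 population, whose fitted values depend on the prior count, and above 1000 CPM nearly all coloured points lie below 0.

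Both libraries of one population lay outside the range of the other in all 2411 called genes. Such separation was common, at 4666 genes higher in Tinaja (30.5% of those tested) and 4554 lower (29.8%), so it is no mark of the called genes. Size alone did not decide a call either. Of 3591 genes at least 2-fold apart, 1558 were not called, and of 714 at least 8-fold apart, 143 were not called. The 143 had a median of 0.576 CPM and a median standard error (SE) of 1.55 on the log2 scale, against 1.62 CPM and 0.74 among the 571 called at that size. In 54 of the 143 (37.8%) the libraries of one population differed by at least 4-fold (on log2 CPM with 0.5 added), as did 18 of the 571 (3.15%). The SE was derived from the F that decides the call, and spread between libraries lowers F. Both contrasts are therefore largely built into the call.

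Genes with the highest mean CPM over both populations were mostly lower in Tinaja where they were called. Of 195 genes that averaged at least 1000 CPM over the 4 libraries, 40 were lower and 3 higher, or 20.5% and 1.54%, against 7.66% and 8.12% of all genes tested. The other 152 were not called. Because the class rests on a mean over both populations, a gene abundant in only 1 of them can enter it. ENSAMXG00000038681, called lower, had 0.516 and 0.887 CPM in Tinaja, and ENSAMXG00000036698, called higher, had 20.1 and 4.07 CPM in Surface. The shares therefore do not describe genes abundant in both populations. Between 100 and 1000 CPM, 95 of 700 genes (13.6%) were lower and 56 (8%) higher. From 10 to 100 CPM the directions were nearly even, at 388 lower and 400 higher of 4442 genes. From 1 to 10 CPM, 488 of 7189 were lower and 591 higher, and under 1 CPM, 159 of 2756 were lower and 191 higher.

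**Figure D2:**
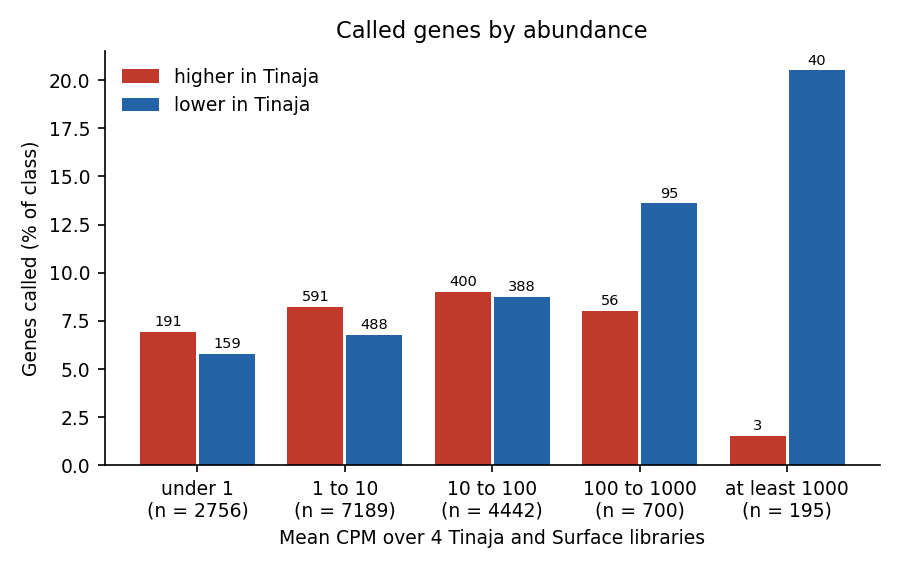
Bars give the percentage of genes called higher (red) and lower (blue) in Tinaja in 5 classes of mean CPM over the 4 Tinaja and Surface libraries, with the number of called genes above each bar and the size of the class below. The blue bar reaches 20.5% in the class of at least 1000 CPM, where the red bar is at 1.54%.

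The median log2 fold change of the 195 abundant genes was -0.31, with 144 below 0, against a median of 0 over all genes. It was -0.24 when libraries were scaled by total counts, with 131 below 0. One library moved it by more than that: it was -0.1 without Surface 1, -0.15 without Tinaja 1, -0.45 without Surface 2 and -0.57 without Tinaja 2. The number of abundant genes called lower was 12 to 23 in the fits that leave out 1 library, with 17 without Surface 1 or Tinaja 1, 21 without Surface 2, 12 without Tinaja 2 and 23 without either Pachon library. Calls over all genes also fell in each of these fits. Over all genes, 961 were lower with the Tinaja and Surface libraries alone in the fit and 1402 with DESeq2's Wald test, against 1170. In the same order, the abundant genes called lower numbered 24 and 65, against 40. The number called higher was 12 with DESeq2 and 1 without Surface 2.

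A core of 12 abundant genes was called with all libraries and in each of the 6 fits that leave out 1, and 11 of these were lower in Tinaja. Abundant calls were kept in every fit about as often as calls in general (27.9% against 23.9%). Their direction follows that of the abundant calls, 40 lower and 3 higher. Of the 12 genes, ENSAMXG00000018060 had the largest fall in CPM and ranked 9 by mean CPM over the 4 libraries. It had 4949 and 5696 CPM in Tinaja 1 and 2 and 26595 and 20179 in Surface 1 and 2, so that the populations were far apart and the libraries of each close together. The mean was 5322 ± 528 in Tinaja and 23387 ± 4536 in Surface (SD, n = 2), which gives a log2 fold change of -2.14 ± 0.36 (SE, adjusted p = 0.0101 by edgeR). The log2 value ran from -2.32 to -1.92 over the alternatives. The gene was chosen among those called in every leave-one-out fit, so its calls there are no test. With Pachon kept or left out whole and all other libraries kept, its adjusted p by edgeR reached at most 0.0276. The fall did not pass the stricter test of a change beyond 2-fold (adjusted p = 0.0545 by edgeR).

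ENSAMXG00000038681 had the smallest p-value of the lower genes with at least 10 CPM in the higher population. It ranked 21 by mean CPM in Surface liver, with 7362 and 3972 CPM in its libraries, and was close to undetected in Tinaja, with 0.516 and 0.887 CPM from 13 and 16 reads. These values differ by -13 ± 0.68 on the log2 scale (SE, adjusted p = 0.000287 by edgeR). The reads pooled over each population had a ratio of 8550, with an exact 95% counting interval of 5950 to 12800 that covers counting error only. The log2 value ran from -13.41 to -12.49 over the alternatives.

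The other lower genes of this core had log2 fold changes from -1.93 to -6.3. The second of the 12 by abundance had 4140 and 4292 CPM in Tinaja and 25511 and 16178 in Surface, a log2 fold change of -2.31 ± 0.38 (SE, adjusted p = 0.00969 by edgeR). The third had 1225 and 1488 CPM against 7459 and 5141, and the fifth 805 and 859 against 4207 and 5149. Their log2 fold changes were -2.22 ± 0.36 (SE, adjusted p = 0.00865 by edgeR) and -2.49 ± 0.33 (adjusted p = 0.00453 by edgeR). In all of these genes both Tinaja libraries kept at least 805 CPM and agreed closely, while Surface lay well above.

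A further set of 3 genes fell from at least 1511 CPM in each Surface library to at most 122 CPM in Tinaja. The eighth gene of the core had 118 and 122 CPM in Tinaja and 2698 and 2939 in Surface, a log2 fold change of -4.55 ± 0.32 (SE, adjusted p = 0.000566 by edgeR). In the eleventh gene the values were 51.7 and 47.9 against 2767 and 2172, and in the twelfth 34.3 and 16.7 against 2509 and 1511. They differed by -5.63 ± 0.36 (SE, adjusted p = 0.000426 by edgeR) and -6.3 ± 0.54 (SE, adjusted p = 0.000887 by edgeR) on the log2 scale. The remaining lower genes, at ranks 6, 9 and 10 of the core, had log2 fold changes of -2.92 ± 0.36, -2.74 ± 0.4 and -1.93 ± 0.31 (SE), with edgeR adjusted p of 0.00337, 0.00612 and 0.00859.

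**Figure D3:**
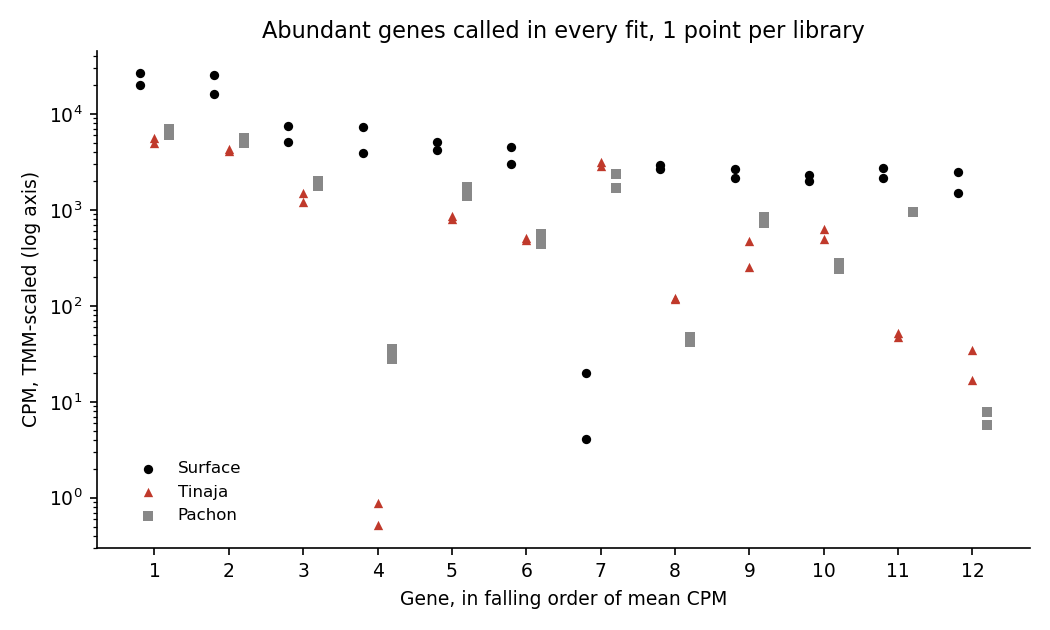
CPM on a log axis for the 12 genes of at least 1000 CPM that were called in every fit, in falling order of mean CPM from left to right, with 1 point per library (black circles Surface, red triangles Tinaja, grey squares Pachon). In 11 genes both red points lie below both black points, and in the seventh gene, at 3197 and 2881 CPM in Tinaja, they lie above.

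The gene of the core that rose, ENSAMXG00000036698, had the largest rise in CPM among genes called in every leave-one-out fit. It had 3197 and 2881 CPM in Tinaja 1 and 2 and 20.1 and 4.07 CPM in Surface 1 and 2. It ranked 31 by mean CPM in Tinaja liver and 4619 in Surface liver. The Surface libraries differed several-fold from each other and still lay far below Tinaja. The log2 fold change was 7.97 ± 0.89 (SE, adjusted p = 0.00297 by edgeR), from 7.24 without Surface 2 to 9.54 without Surface 1. The choice of this gene fixed its calls in the leave-one-out fits. With Pachon kept or left out whole and all other libraries kept, its adjusted p by edgeR reached at most 0.00595. Both other abundant genes called higher were uneven in Tinaja, with 11213 and 1577 CPM in one and 894 and 2922 in the other, and neither was called in every fit.

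ENSAMXG00000012672 had the smallest p-value of the higher genes with at least 10 CPM in Tinaja. It gave 37.9 and 46.5 CPM in Tinaja, from 954 and 839 reads, and 0.124 and 0.0447 CPM in Surface, from 3 reads and 1 read. The pooled reads had a ratio of 483, with an exact 95% counting interval of 188 to 1770. The fitted log2 fold change was 8.86 ± 0.38 (SE, adjusted p = 0.000287 by edgeR), with a range of 8.36 to 9.73 over the alternatives. The counting interval covers counting error only. Tinaja and Surface were separated by far more than the spread of either, which the choice by smallest p makes likely.

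Among the called genes, the total of the falls was larger than that of the rises and sat in fewer genes. The 152 uncalled genes of at least 1000 CPM, which entered neither total, together held 43.7% ± 2 of the counts in Surface and 60.6% ± 7.8 in Tinaja (SD, n = 2 each). Summed over the 1170 lower genes, mean CPM was 252636 lower in Tinaja, and 7 genes made up at least 50% of that sum. Over the 1241 higher genes it was 42929 higher, with 21 genes for at least 50%. The 10 largest falls held 56.6% of the sum and the 10 largest rises 38.5%. Of the 10 largest falls, 5 were genes of the core, and of the 10 largest rises 3 were called in every fit. Of all called genes, 23.9% were called in every fit, and the 3 of 10 rises are near that share. The fourth largest rise was one of these 3 and went from 129 and 93.7 CPM in Surface to 1202 and 996 in Tinaja, by 3.3 ± 0.34 on the log2 scale (SE, adjusted p = 0.0018 by edgeR).

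As a share of all counts, the lower genes took 28.5% and 30.4% in Surface 1 and 2 and 9.91% and 6.52% in Tinaja 1 and 2. The 40 lower genes of at least 1000 CPM carried most of this, with 23.2% ± 1.2 in Surface and 6.3% ± 2 in Tinaja (SD, n = 2). The higher genes took 1.05% and 1.15% in Surface and 6.17% and 4.11% in Tinaja. The 152 abundant genes that were not called held 45.1% and 42.3% of all counts in the Surface libraries and 55.1% and 66.2% in the Tinaja libraries. The class of at least 1000 CPM as a whole therefore had similar shares, at 67% ± 0.8 in Surface and 68% ± 5.1 in Tinaja (SD, n = 2). The called genes were chosen on these counts, so their shares are a description. For a single value, 2 libraries against 2 allow no two-sided exact permutation p below 0.333.

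**Figure D4:**
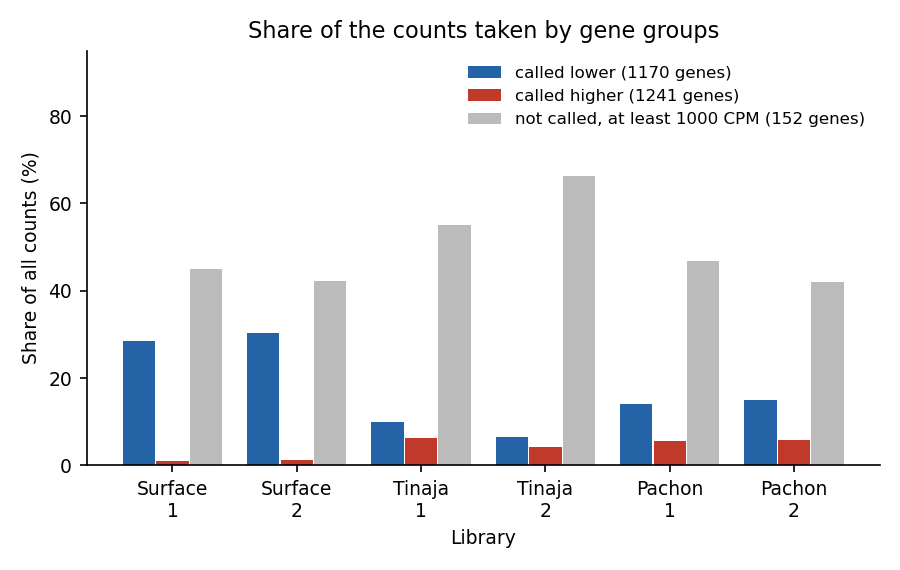
Bars give, for each of the 6 libraries, the percentage of all counts taken by the 1170 genes lower in Tinaja (blue), the 1241 genes higher in Tinaja (red) and the 152 genes of at least 1000 CPM that were not called (grey). Blue falls from 28.5% and 30.4% in Surface to 9.91% and 6.52% in Tinaja, while grey is highest in Tinaja 2, at 66.2%.

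Among the abundant genes that were not called were several with large but uneven differences. Of the 20 most abundant genes, 5 were called and all 5 were lower in Tinaja, out of 12 in which both Tinaja libraries lay below both Surface libraries. In 6 of the 20 both Tinaja libraries lay above both Surface libraries, and none of the 6 was called. Over all genes tested, 15.8% were called, 7.66% as lower. Both Tinaja libraries lay below both Surface libraries in 29.8% of all genes and above them in 30.5%. The 6 of 20 are close to that last share. The most abundant gene had 81751 and 193739 CPM in Tinaja and 13538 and 1339 in Surface, and was not called (adjusted p = 0.142 by edgeR). The third had 53178 and 125268 CPM in Tinaja and 3860 and 418 in Surface (adjusted p = 0.0918 by edgeR). In the fifth the values were 34494 and 81391 against 3959 and 375 (adjusted p = 0.124 by edgeR). The eleventh had 8975 and 36114 CPM in Tinaja and 2872 and 237 in Surface (adjusted p = 0.233 by edgeR). By falling abundance, the log2 fold changes of these genes were 4.21 ± 1.6, 5.38 ± 1.67, 4.74 ± 1.68 and 3.86 ± 1.88 (SE). They were as large as many that were called, with SEs above the median of 0.74 among called genes of 8-fold or more. The Pachon libraries were also uneven in these genes, with 33929 and 3445 CPM in the most abundant. DESeq2's Wald test called the most abundant gene (adjusted p = 0.023).

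Of the 5 called genes among the 20 most abundant, 2 belonged to the core and 3 did not. The second by mean CPM went from 65207 and 85050 CPM in Surface to 31838 and 19678 in Tinaja, by -1.54 ± 0.41 on the log2 scale (SE, adjusted p = 0.0435 by edgeR), and was called in none of the leave-one-out fits, at adjusted p of 0.0571 to 0.146 by edgeR. The call was also lost with the Tinaja and Surface libraries alone (adjusted p = 0.0974 by edgeR) and without robust shrinkage (adjusted p = 0.0809 by edgeR). The eighth had 2146 and 458 CPM in Tinaja and 22443 and 37694 in Surface, a log2 fold change of -4.53 ± 0.94 (SE, adjusted p = 0.025 by edgeR). That call was lost in edgeR at an adjusted p of 0.0537 when Surface 1 was left out, 0.081 when Surface 2 was, 0.0731 when Tinaja 2 was and 0.0772 under total-count scaling. The gene at rank 20 had 3289 and 2591 CPM in Tinaja and 14367 and 6721 in Surface, and its log2 fold change of -1.84 ± 0.45 (SE, adjusted p = 0.0328 by edgeR) was called when Surface 2 was left out and in no other leave-one-out fit. It was not called with the Tinaja and Surface libraries alone (adjusted p = 0.0615 by edgeR).

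Genes read in one population and held to at most 3 reads in the other formed a small group, mostly at low levels. That cut leaves out nearly absent genes with more reads, such as ENSAMXG00000038681, with 29 reads in Tinaja. There were 51 genes with at least 1 CPM in each Tinaja library and at most 3 reads over both Surface libraries, and 57 with the reverse. The median level in the population that had them was 3.65 CPM in Tinaja and 2.96 CPM in Surface, and 6 of each kind reached 10 CPM. Of the 51, 49 were called, and of the 57, 54, which the choice of these genes nearly fixes. No read was found in Surface for 18 of the 51, nor in Tinaja for 24 of the 57.

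The gene with the most Tinaja reads among those 18 had 9.53 and 8.15 CPM in Tinaja, from 240 and 147 reads, and was at least 138-fold higher than the bound of 3 reads over the Surface libraries (adjusted p = 0.0125 by edgeR). In the other direction, the gene with the most Surface reads had 22.8 and 18.1 CPM there, from 551 and 404 reads, and was at least 295-fold lower in Tinaja (adjusted p = 0.000426 by edgeR). In Pachon the first gene had 0.634 and 2.8 CPM and the second 0 and 0.0286. Of the 57 genes off in Tinaja, 28 were also off in Pachon and 8 were on there. Of the 51 off in Surface, 16 were on and 16 off in Pachon. How reads from cave fish align to the genome used, and how reads of near-identical gene copies were counted, was not tested.

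Large differences were also found in genes with a moderate level. At least 10 CPM in the higher population and at least 8-fold differences were found in 83 higher and 85 lower called genes. Rises and falls were ranked by fitted fold among called genes of at least 10 CPM in the higher population, so uncalled genes could not enter. Of the 10 largest rises, 9 were called in every leave-one-out fit, and of the 10 largest falls, 7. Among all called genes of 8-fold or more, at any level, the share was 43.4%. The third largest rise had 796 and 423 CPM in Tinaja and 0.496 and 1.16 in Surface, a log2 fold change of 9.52 ± 0.71 (SE, adjusted p = 0.000682 by edgeR). The eighth largest fall had 1.27 and 0.942 CPM in Tinaja and 585 and 163 in Surface, a log2 fold change of -8.38 ± 0.86 (SE, adjusted p = 0.003 by edgeR). In the second of these genes the Surface libraries differed several-fold from each other, and both Tinaja libraries lay far below them.

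Libraries of one population also differed from each other. These are differences between single libraries, whereas the populations are compared by means of 2 libraries. Over 5337 genes of at least 10 CPM, the median difference between libraries was 0.26 in Tinaja and 0.25 in Surface on the log2 scale, against 0.39 between the population means. Over the 195 genes of at least 1000 CPM it was 0.5 in Tinaja, 0.49 in Surface and 0.53 between the means. Large differences in these 195 genes were more frequent between the populations: at least 2-fold in 13.3% between the Tinaja libraries, 10.3% between the Surface libraries and 33.8% between the means, and at least 4-fold in 2.05%, 3.08% and 10.8%. Over the 5337 genes, differences of at least 4-fold were found in 54 genes (1.01%) between the Tinaja libraries, in 94 (1.76%) between the Surface libraries and in 305 (5.71%) between the means. Of the 119 genes of at least 10 CPM that were 4-fold apart within a population, 13 (10.9%) were called, against 969 of the other 5218 (18.6%). In 29 of the 119 both populations showed it. Spread between libraries enters the test, which makes fewer calls among the 119 likely.

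The smallest difference called varied with the level of the gene. The median SE of the log2 fold change was 0.3 from 1 to 10 CPM, 0.22 from 10 to 100 CPM, 0.32 from 100 to 1000 CPM and 0.37 at 1000 CPM or more. The smallest called log2 fold change was 1.39 under 1 CPM, 0.67 from 1 to 10 CPM, 0.6 from 10 to 100 CPM, 0.83 from 100 to 1000 CPM and 1.14 above that. The precision was therefore best from 10 to 100 CPM and not in the classes with the most reads.

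The number of calls fell when any 1 library was left out. Each of these fits also tested more genes than the 15282 of the full fit. Without Tinaja 2 there were 878 called genes, without Tinaja 1 there were 1126, without Surface 1 there were 1277 and without Surface 2 there were 1303. Without Pachon 1 or 2, which take no part in the fold change, there were 1787 and 1812. With both Pachon libraries left out, 1953 genes were called, more than with either one left out. The split moved as well when 1 library was left out. Higher genes made up 51.5% of the calls with all libraries, 44.7% without Surface 2 and 58% without Tinaja 1.

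In all, 576 genes were called with all libraries and in each of these 6 fits, 300 higher and 276 lower, or 23.9% of the 2411, and each kept its direction. None of these 576 was among the 378 called genes under 2-fold. They included 182 of the 1081 called genes from 2-fold to 4-fold (16.8%), 146 of 381 from 4-fold to 8-fold (38.3%) and 248 of 571 at 8-fold or more (43.4%). By level, they were 8.86% of the calls under 1 CPM and 25.2% to 27.9% in the 4 classes above. A further 414 of the 2411 were called in none of the 6 fits.

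**Figure D5:**
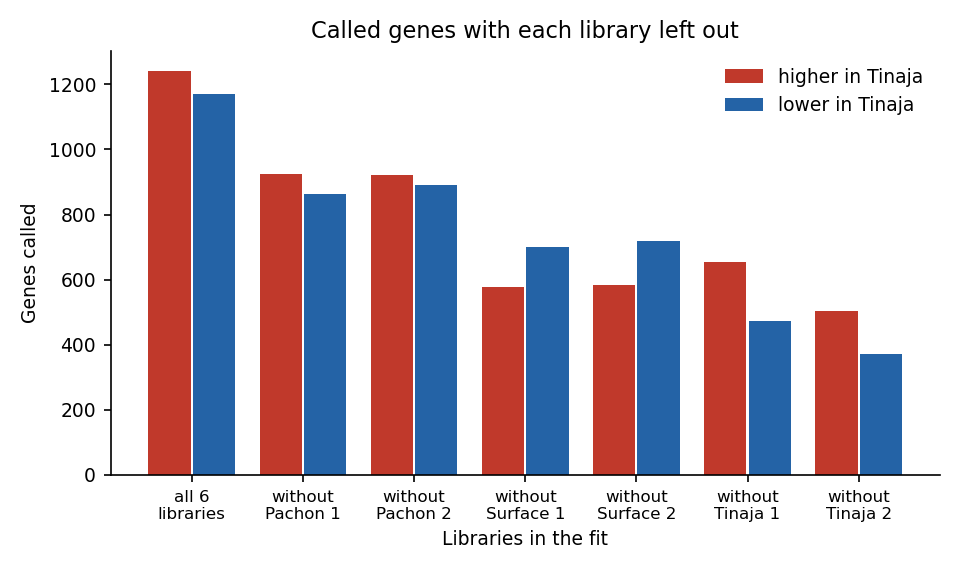
Bars give the number of genes called higher (red) and lower (blue) in Tinaja with all 6 libraries and with each library left out of the fit. The counts are 1241 and 1170 with all libraries and lowest without Tinaja 2, at 505 and 373.

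The values in Pachon, the other cave population, lay near those of Tinaja in some of these genes and apart from them in others. Where they lay apart, Pachon could still be on the Tinaja side of Surface. The difference between Tinaja and Pachon came from the same fit and uses the same Tinaja libraries, so it is given gene by gene, with p-values adjusted over all genes. ENSAMXG00000018060 had 7040 and 6084 CPM in Pachon, and Tinaja differed from it by -0.3 ± 0.34 on the log2 scale (SE, adjusted p = 0.61 by edgeR). For ENSAMXG00000036698 the Pachon values were 1712 and 2372 CPM and the difference was 0.57 ± 0.65 (SE, adjusted p = 0.611 by edgeR). In ENSAMXG00000012672 they were 33.7 and 27.1 CPM, with a difference of 0.47 ± 0.22 (SE, adjusted p = 0.217 by edgeR). A p-value above the threshold does not show that the populations are alike.

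ENSAMXG00000038681, at 35.8 and 28 CPM in Pachon, was lower in Tinaja than there by -5.52 ± 0.52 on the log2 scale (SE, adjusted p = 0.00154 by edgeR). Both Pachon libraries were themselves far below the 7362 and 3972 CPM of Surface 1 and 2. The eleventh gene of the abundant core had 956 CPM in each Pachon library and 51.7 and 47.9 CPM in the Tinaja libraries, a difference of -4.26 ± 0.33 (SE, adjusted p = 0.000798 by edgeR). For the eighth gene of that core the order was reversed, with 47.8 and 41.8 CPM in Pachon and a Tinaja excess of 1.43 ± 0.29 (SE, adjusted p = 0.0259 by edgeR). Surface 1 and 2 had 2767 and 2172 CPM in the eleventh gene and 2698 and 2939 in the eighth, above every Pachon library. Of the called rises ranked by fold above, the third largest had 8.95 and 17.1 CPM in Pachon, against 0.496 and 1.16 in Surface. Tinaja exceeded Pachon by 5.55 ± 0.58 in this gene (SE, adjusted p = 0.00278 by edgeR). Rank 10 among the rises had 11.6 and 11 CPM in Tinaja and at most 0.0447 CPM in each Pachon and Surface library, from 1 read per library.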

How the data were processed

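Polyadenylated RNA from liver was sequenced from stranded libraries, per the labels' protocols. The authors deposited whole-number read counts per gene, without normalization as far as the values show. The submitters' processing notes name bcl2fastq 2.20 and STAR. How reads were counted, with which strand setting, and how near-identical, overlapping or antisense genes were treated is not given in the sources used here. Counts of such genes are uncertain.

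From the counts, edgeR 4.0.16 (R 4.3.3) computed TMM factors and kept genes by its expression filter (count minimum 10). Of the 15282 genes kept, 798 passed through the Pachon libraries and would be dropped with the 4 Tinaja and Surface libraries alone. The 6 libraries entered one robust quasi-likelihood model with a term per population (3 residual degrees of freedom, common biological coefficient of variation 25.1%). P-values are two-sided, with Benjamini-Hochberg adjustment across the whole set of genes tested. SE was derived approximately from the log2 fold change and F. CPM are TMM-scaled. Alternatives used limma 3.58.1 (voom), DESeq2 1.42.0, other scalings, other filters and fewer libraries.

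Genes printed by identifier were called, did not overlap between populations, and had, per direction, the smallest p at 10 CPM or more in the higher population, or the largest change in CPM among genes called in all 6 leave-one-out fits. Genes given by rank were chosen after their values were seen. The comparison, the rule and the gene lists were chosen with earlier results of these data known. The lists by symbol could not be used. The planned count of genes called against both Surface and Pachon is not given, since both comparisons use the same Tinaja libraries.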

Additional observations from a re-analysis of the deposited data

Results flagged for a closer look

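ENSAMXG00000038681 drew attention because the differences of the cave populations from Surface were unequal by the test of the difference itself. Tinaja was lower than Pachon by -5.52 ± 0.52 on the log2 scale (SE, adjusted p = 0.00154 by edgeR), with both Tinaja libraries under 1 CPM and both Pachon libraries at 28 CPM or more. The Pachon mean of 31.9 CPM was itself far below the Surface mean of 5667 CPM. This gene was chosen for its small p against Surface, and the same Tinaja libraries enter the test against Pachon. Of the 4 genes printed by identifier it was the one that passed this test.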

How the results depend on the processing

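The directions of the 4 genes printed by identifier and their calls held under every alternative. The genes printed for the largest change in CPM had to be called in every leave-one-out fit to be chosen. Their calls in those fits are therefore no test of them. The others were chosen for the smallest p, which makes a kept call likely. With 1 library left out, called genes numbered 878 to 1812, with 505 to 924 higher and 373 to 890 lower, genes changed beyond 2-fold 253 to 570, abundant genes lower 12 to 23 and abundant genes higher 1 to 4. These fits hold fewer libraries, and a population with 1 library left is assumed to vary like the others. With both Tinaja and both Surface libraries kept and Pachon kept or left out whole, counts of called genes stayed within 1.5 times the reported 2411, from 1953 with only the Tinaja and Surface libraries to 2935 with DESeq2's Wald test. Abundant genes lower in Tinaja were 24 with only the Tinaja and Surface libraries and 65 with DESeq2, and those higher were 12 with DESeq2; the cause was not tested. Under total-count scaling the median log2 fold change over all genes was 0.084, and 59.8% of the calls were higher against 51.5%. No gene called with all libraries changed direction under an alternative that tested it. In each called gene the libraries of the populations did not overlap in CPM, which nearly fixes this outcome. The same holds for the kept directions of genes called in every leave-one-out fit. Replicate numbers are shared between populations. The deviations of same-numbered Tinaja and Surface libraries had a correlation of 0.017 over genes. It was -0.123 for Tinaja and Pachon and 0.05 for Surface and Pachon. With 2 libraries per population these values cannot show whether the numbers pair the libraries. With the replicate block, 1956 genes were called, 997 higher and 959 lower, and the second most abundant gene was not called (adjusted p = 0.0949 by edgeR). Genes on in Tinaja and off in Surface numbered 49 to 51, and the reverse 54 to 57, under 2 other scalings and 2 other filters chosen after seeing the data. The count of genes called also against Pachon was not run. With 2 libraries per population, genes under 1 CPM were called only at a log2 fold change of 1.39 or more.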
